A study of Saccharomyces cerevisiae with 6 samples.

Results

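Thp1, Sac3 and Rrm3 binding clusters were described where they lie within 20 kb of a chromosome end in *Saccharomyces cerevisiae*. A cluster is a stretch of chromosome where ChIP-chip found the protein enriched. It was taken when its start lay below position 20000, or when its end lay less than 20 kb from the right end of its chromosome. The right end was the highest cluster end on that chromosome in any of the 3 lists. By this rule 612 of 11869 clusters were members, with 171 of 2485 in the Thp1 list, 151 of 2282 in the Sac3 list and 290 of 7102 in the Rrm3 list. The 32 windows of 20 kb measured 640000 bp together, 5.30% of the span analyzed. They held 6.88% of all Thp1 clusters, 6.62% of all Sac3 clusters and 4.08% of all Rrm3 clusters.

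The study asked where these proteins sit on the genome, and used 6 samples. Thp1 was FLAG-tagged (*THP1::FLAG::KanMX*) in a strain with no listed deletion, Sac3 likewise (*SAC3::FLAG::KanMX*), and each was read in 1 array experiment. Rrm3-FLAG was read in *sac3Δ* cells of strain S3RBb-5B (*sac3::KanMX*, *bar1Δ*, *Rrm3::FLAG*, *ura3::URA3/GPD-Tk(7x)*), with 2 repetitions behind a single list. The *thp1Δ* samples were not analysed here. All of these strains were MATa and carried *trp1-1*, *his3-11,15*, *can1-100*, *ade2-1* and a mutant *leu2* allele, and the Thp1 and Sac3 strains carried *ura3-1*. Cells grew asynchronously in rich YPD medium at 30°C to mid-log phase. The antibody recognized FLAG, and the reference was input DNA of the same strain.

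Yeast chromosomes end in short repeats followed by subtelomeres. These are patchworks of repeated elements and gene families, in which an X element lies at nearly every end and Y′ elements at some. Subtelomeric genes are often kept silent by Sir proteins, and telomeres gather at the nuclear envelope. Thp1 and Sac3 are subunits of TREX-2, a complex that links transcription with mRNA export at the nuclear pore. Rrm3 is a helicase of the Pif1 family that helps replication forks through tightly bound proteins, and telomeres are among the places where forks of yeast are known to need it.

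There was 1 list per protein and no replicate list. Differences between lists therefore could not be set against a spread between replicates, and no test was run on them. The Rrm3 list also differs from the others in strain, in the deletion of *SAC3* and in its number of arrays, which cannot be told apart. The number of arrays limits the precision. Left ends count from the first position of each chromosome, and the first cluster began 12 to 43 bp from it in every list. In 15 of the 16 chromosomes it began at the same position in all 3 lists. Right ends depend on the lists. All 3 lists reached the same last position on 6 chromosomes (IV, V, VII, XII, XV and XVI), Rrm3 alone set it on 8 and Thp1 alone on chromosomes I and VIII. At least 1 list thus touches each right end by construction. The lists name no genome build, so no cluster was placed on a gene by its position and no sequence was read there.

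Clusters covered more of the chromosome ends than of the rest of the chromosomes in all 3 lists. Thp1 clusters covered 34.6% ± 20.7 of the windows (SD, n = 32 ends), against 9.90% of the sequence farther in. Sac3 clusters covered 34.0% ± 19.97 of the windows, against 9.84% farther in. Rrm3 clusters in *sac3Δ* cells covered 60.1% ± 18.3 of the windows, against 42.4% farther in. These are ratios of 3.50, 3.45 and 1.42. On each of the 16 chromosomes the windows were covered more than the interior of the same chromosome, for each protein. The windows held 16.4% of all bases in Thp1 clusters, 16.2% of those in Sac3 clusters and 7.36% of those in Rrm3 clusters.

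There were 267 Thp1 clusters per Mb in the windows, against 202 farther in, and 236 Sac3 clusters per Mb, against 186. For Rrm3 the order was the opposite, with 453 clusters per Mb in the windows, against 596 farther in. Clusters at the ends were longer in each list. Thp1 clusters had a median of 369 bp in the windows, against 259 bp farther in, and a mean of 1309 ± 2397 bp, against 488 ± 917 bp (SD across clusters). The medians of Sac3 clusters were 435 bp in the windows and 270 bp farther in. For Rrm3 they were 550.5 bp in the windows and 452.5 bp farther in, with means of 1357 ± 2272 bp and 709 ± 925 bp.

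The longest clusters made up a larger share at the ends than in the lists as a whole. Clusters of 5 kb or more were 18 of 171 for Thp1 (10.5%, 95% Wilson interval 6.76 to 16.02%), against 2.29% of all Thp1 clusters. They were 18 of 151 for Sac3 (11.9%, interval 7.67 to 18.1%), against 2.63% of all Sac3 clusters. They were 22 of 290 for Rrm3 (7.59%, interval 5.06 to 11.2%), against 0.986% of all Rrm3 clusters. The limit of 5 kb was chosen with the lengths known. The intervals reflect counting error alone, and clusters that neighbor each other are not independent. Short clusters were also present at the ends. Those under 300 bp were 42.7% of Thp1 clusters in the windows, against 59.4% farther in, 34.4% of Sac3 clusters, against 56.5%, and 27.2% of Rrm3 clusters, against 30.8%.

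To see how coverage changes with distance, each window was divided into 20 bins of 1 kb. In the outermost bin Thp1 clusters covered 82.5% ± 29.8 of the bases (SD, n = 32 ends), Sac3 clusters 85.3% ± 25.3 and Rrm3 clusters 93.3% ± 16.9. In the bin from 4 to 5 kb the means were 57.04% for Thp1, 56.4% for Sac3 and 75.2% for Rrm3, and from 9 to 10 kb they were 23.8%, 21.2% and 52.8%. Coverage thus declined inward in each list. It first reached the level of the interior at 14 to 15 kb for Thp1 (9.37%), at 15 to 16 kb for Sac3 (9.27%) and at 14 to 15 kb for Rrm3 (40.8%). From 14 to 20 kb the mean was 10.8% for Thp1, 10.1% for Sac3 and 43.5% for Rrm3, close to the 9.90%, 9.84% and 42.4% of the interior. The bins of an end are not independent, because a single cluster can fill several of them.

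**Figure D1:**
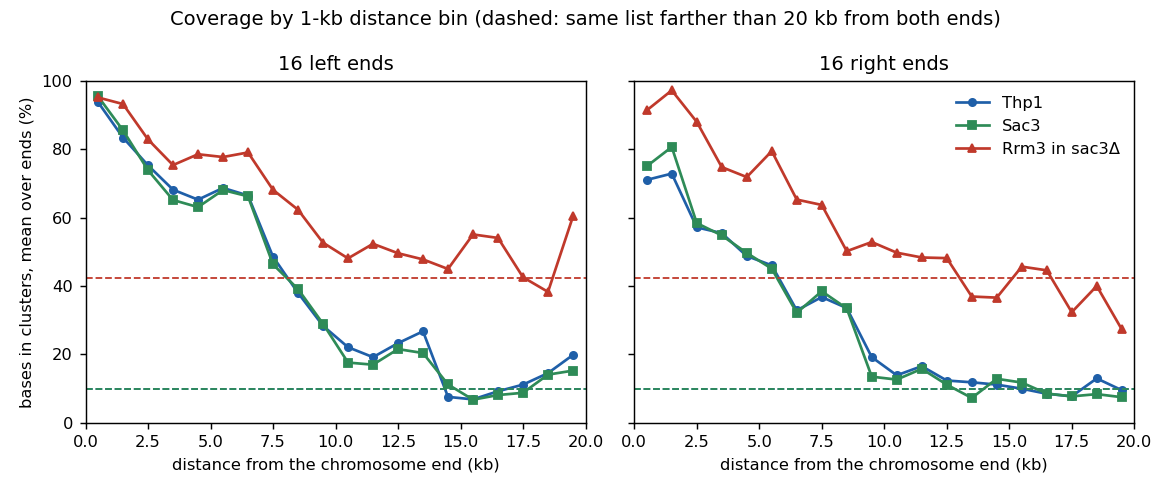
Share of bases in clusters (vertical axis, %) by distance from the chromosome end in 1-kb bins (horizontal axis, kb), as the mean over 16 left ends and over 16 right ends, for Thp1 (blue circles), Sac3 (green squares) and Rrm3 in *sac3Δ* cells (red triangles). Dashed lines give the coverage of the same list outside the windows (9.90% for Thp1, 9.84% for Sac3 and 42.4% for Rrm3), and the dashed lines of Thp1 and Sac3 lie on each other.

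Coverage was lower at the inner than at the outer side of the windows on left and on right ends, with different courses. In the outermost bin the left ends were covered to 93.8% by Thp1, 95.5% by Sac3 and 95.2% by Rrm3, and the right ends to 71.1%, 75.1% and 91.4%. At right ends the highest bin was that from 1 to 2 kb in each list, with 72.9% for Thp1, 80.7% for Sac3 and 97.3% for Rrm3. Rrm3 first reached the level of the interior at 18 to 19 kb on left ends and at 13 to 14 kb on right ends, and its mean from 14 to 20 kb was 49.3% on left ends and 37.8% on right ends. Over the whole window the left ends were covered to 39.8% ± 18.7 by Thp1 and the right ends to 29.4% ± 21.9 (SD, n = 16 ends each). The difference was smaller than the SD, which describes single ends and not the precision of a mean. Left and right ends were not paired by chromosome. For Sac3 the values were 38.6% ± 18.0 at left ends and 29.3% ± 21.3 at right ends, and for Rrm3 62.9% ± 18.0 and 57.3% ± 18.7. The position of the right ends was taken from the lists, and its part in this difference was not tested.

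The means over ends hide a division into ends that were filled for several kb and ends that were not. In the bin from 4 to 5 kb, Thp1 clusters filled every base at 17 ends and touched 21, Sac3 clusters filled 17 and touched 22, and Rrm3 clusters filled 18 and touched 31. The SD over ends in this bin was 47.8 percentage points for Thp1, against a mean of 57.04%. Single clusters did most of this filling, as the map of clusters shows.

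**Figure D2:**
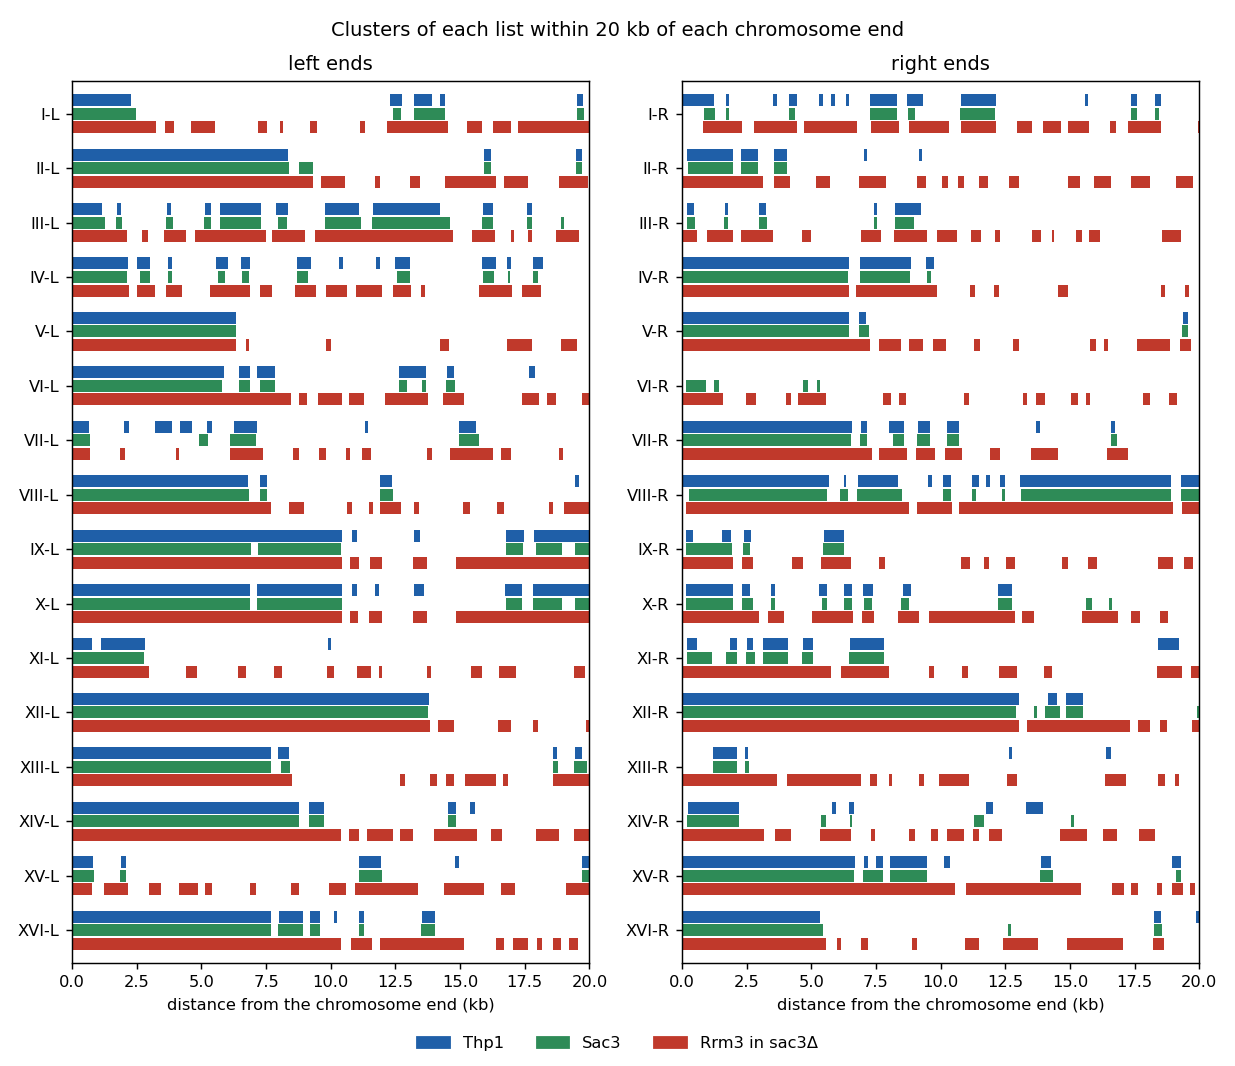
Clusters of Thp1 (blue), Sac3 (green) and Rrm3 in *sac3Δ* cells (red) at each left and right chromosome end, drawn to scale by distance from the end (horizontal axis, kb) and cut at 20 kb. Long blocks start at many ends, for example over 12 kb in all 3 lists at both ends of chromosome XII, whereas VI-R has no Thp1 cluster.

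The outermost cluster of each end, the one nearest to it, was sorted by length at a limit of 5 kb. For Thp1 it measured 5321 to 13768 bp at 17 ends and 288 to 2271 bp at 14. There was no Thp1 cluster at the right end of chromosome VI (VI-R, where L and R name left and right ends). For Sac3 it measured 5354 to 13760 bp at 17 ends and 306 to 2757 bp at 15. For Rrm3 it measured 5580 to 13836 bp at 18 ends and 575 to 3674 bp at 14. The 17 ends were the same for Thp1 and Sac3, namely II-L, IV-R, V-L, V-R, VI-L, VII-R, VIII-L, VIII-R, IX-L, X-L, XII-L, XII-R, XIII-L, XIV-L, XV-R, XVI-L and XVI-R. Rrm3 had a cluster of 5 kb or more at these ends and also at XI-R, where it measured 5750 bp. The outermost Thp1 cluster there had 379 bp and that of Sac3 962 bp. This division was read off the lengths and is a description without a test. The lengths also left wide gaps above 5 kb. Sac3 had none between 8737 and 12922 bp, and Rrm3 none between 10545 and 13018 bp.

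The longest clusters at chromosome ends lay on chromosome XII in every list. XII-L had a single Thp1 cluster of 13768 bp, a single Sac3 cluster of 13760 bp and an outermost Rrm3 cluster of 13836 bp. At XII-R the lengths were 13014 bp for Thp1, 12922 bp for Sac3 and 13018 bp for Rrm3. The next Thp1 clusters measured 10437 bp at IX-L, 8733 bp at XIV-L and 8344 bp at II-L. Sac3 had 8737 bp at XIV-L, 8360 bp at II-L and 7685 bp at XIII-L. Rrm3 had 10545 bp at XV-R, 10425 bp at IX-L and 10408 bp at X-L.

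Thp1 and Sac3 stopped at nearly the same place. The inner edges of their outermost clusters differed by a median of 22 bp over the 31 ends where both had one, and by at most 100 bp at 24 of these. They were equal at V-L, where all 3 lists had 6331 bp, and at X-L, where Thp1 and Sac3 had 6881 bp. Only 3 ends differed by more than 1 kb. The inner edge of Thp1 minus that of Sac3 was 3539 bp at IX-L, -1489 bp at IX-R and -2020 bp at XI-L. At IX-L the Sac3 list had a cluster of 6898 bp and another of 3234 bp behind it, which ended 10404 bp from the chromosome end, close to the 10449 bp of the single Thp1 cluster.

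The outermost Rrm3 cluster reached farther in than that of Thp1 at 28 of 31 ends and farther than that of Sac3 at 30 of 32. The inner edges differed by a median of 965 bp from Thp1 and of 841.5 bp from Sac3. At XV-R the outermost cluster measured 6685 bp for Thp1, 6657 bp for Sac3 and 10545 bp for Rrm3. At VIII-R it measured 5676 bp for Thp1, 5354 bp for Sac3 and 8643 bp for Rrm3. At IV-R, by contrast, the lengths were nearly equal, with 6466 bp for Thp1, 6410 bp for Sac3 and 6470 bp for Rrm3.

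**Figure D3:**
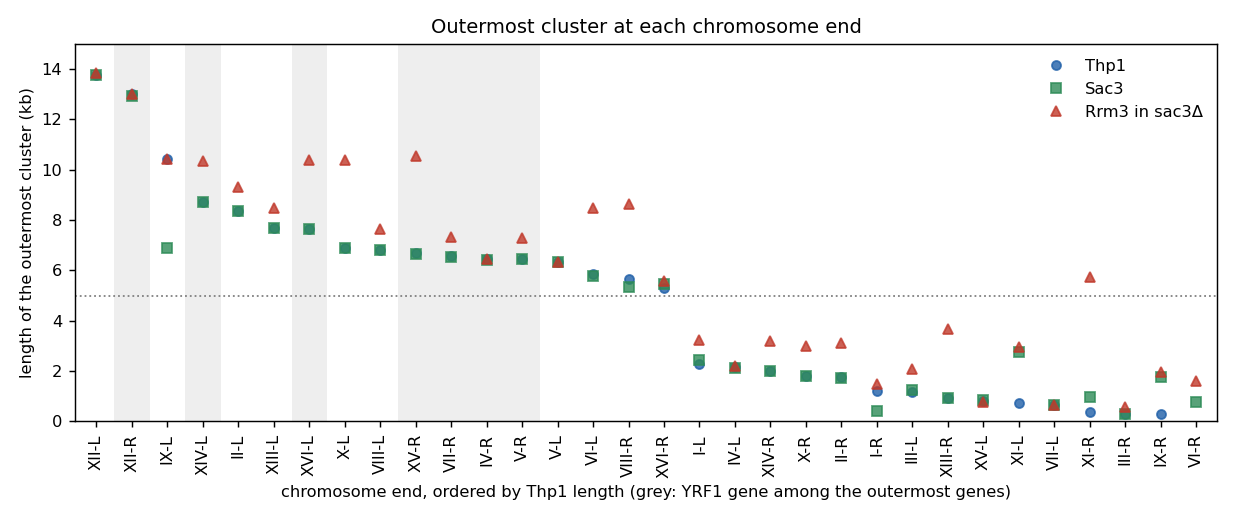
Length of the cluster nearest to each chromosome end (vertical axis, kb) for Thp1 (blue circles), Sac3 (green squares) and Rrm3 in *sac3Δ* cells (red triangles), with the 32 ends ordered by the Thp1 length and the ends that carry a *YRF1* gene shaded in grey. The dotted line marks 5 kb. The 17 ends on the left lie above it in all lists, and among the others only Rrm3 at XI-R does.

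The order of genes along the chromosomes gives a property of each end that does not depend on the lists. In the R64 annotation of RefSeq, whose coordinates were not used, *YRF1* genes encode the helicase of Y′ elements. Its 8 genes of that name lie at 7 ends, among the 2 outermost genes of each (*YRF1-1* at IV-R, *YRF1-2* at V-R, *YRF1-3* at VII-R, *YRF1-4* and *YRF1-5* at XII-R, *YRF1-6* at XIV-L, *YRF1-7* at XVI-L and *YRF1-8* at XV-R). All 7 belonged to the 17 ends with long outermost clusters. Their outermost clusters measured 6461 to 13014 bp for Thp1, 6410 to 12922 bp for Sac3 and 6470 to 13018 bp for Rrm3. At the 25 ends without a *YRF1* gene the ranges were 288 to 13768 bp for Thp1, 306 to 13760 bp for Sac3 and 575 to 13836 bp for Rrm3, with 10, 10 and 11 clusters of 5 kb or more. The ranges thus overlapped, and a long outermost cluster was also found where no gene of this name is annotated. Genes with a systematic name only, such as *YLL067C* at XII-L, were not examined for Y′ elements. The 25 ends may therefore include ends that carry one. The comparison was chosen with the lengths known and was not tested.

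XII-R is the only end with a pair of *YRF1* genes, and its outermost Thp1 cluster measured 13014 bp. The 6 ends with a single *YRF1* gene had Thp1 clusters of 6461 bp (V-R), 6466 bp (IV-R), 6557 bp (VII-R), 6685 bp (XV-R), 7661 bp (XVI-L) and 8733 bp (XIV-L). The Sac3 clusters were of similar length, 12922 bp at XII-R and 6410 to 8737 bp at the others. For Rrm3 the cluster at XII-R measured 13018 bp and those at the others 6470 to 10545 bp. XII-L, where no gene of this name is annotated, had longer outermost clusters than XII-R in each list. They measured 13768 bp for Thp1, 13760 bp for Sac3 and 13836 bp for Rrm3. The genes at XII-L with a systematic name only were not examined for Y′ elements, so this end may carry them too.

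Coverage of the whole window was 48.2% ± 10.9 for Thp1 at the 7 ends with *YRF1* genes (SD, n = 7 ends), against 30.8% ± 21.4 at the 25 others. For Sac3 it was 48.1% ± 11.4, against 30.0% ± 20.2, and for Rrm3 72.2% ± 14.3, against 56.7% ± 18.0. From 10 to 20 kb the order of Thp1 and Sac3 turned. Thp1 covered 10.4% ± 13.6 at ends with *YRF1* genes, against 14.7% ± 18.4 at the others, and Sac3 covered 10.1% ± 14.9, against 12.8% ± 17.6. Rrm3 covered 47.8% ± 25.1 there, against 44.4% ± 19.3. The spread between ends exceeded each of these differences from 10 to 20 kb. Over the whole window each difference was larger than the SD of the 7 ends and smaller than that of the 25 others. The 7 ends carry genes of the same name, and whether the array probes tell the copies apart was not tested. They may thus not be independent of each other.

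Other gene families of subtelomeres were spread over ends with long and with short outermost clusters. *PAU* genes encode seripauperins, small proteins of the cell wall. Of the 24 *PAU* genes annotated, 19 lay among the 8 outermost genes of 19 ends. At these 19 ends Thp1 covered 34.8% ± 23.2, Sac3 34.1% ± 22.5 and Rrm3 59.5% ± 19.7 of the window (SD, n = 19 ends). At the 13 others the values were 34.4% ± 17.4, 33.8% ± 16.6 and 61.0% ± 16.7, so that coverage hardly differed between these groups. *COS* genes encode membrane proteins that act in the sorting of other membrane proteins for degradation. Of 12 *COS* genes, 11 lay among the outermost genes of 11 ends, where Thp1 covered 30.1% ± 13.5, Sac3 28.4% ± 13.7 and Rrm3 54.3% ± 15.0. At the 21 others the values were 37.0% ± 23.6, 36.8% ± 22.3 and 63.1% ± 19.4, with differences smaller than the spread between ends.

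The outermost clusters held most of the Thp1 and Sac3 coverage at the ends. They accounted for 67.3% of the covered bases of the windows for Thp1, 68.8% for Sac3 and 49.6% for Rrm3. Apart from them, 140 Thp1, 119 Sac3 and 258 Rrm3 clusters remained, with medians of 294.5, 348 and 471 bp. The remaining bases of the windows were covered to 14.8% by Thp1, against 9.90% farther in, and to 13.8% by Sac3, against 9.84%. For Rrm3 the value was 43.1%, against 42.4% farther in. In this measure the ends stood slightly above the interior for Thp1 and Sac3, and by less than 1 percentage point for Rrm3. From 10 to 20 kb, Thp1 covered 17.5% ± 20.9 at the 17 ends with a long outermost Thp1 cluster, against 9.53% ± 11.5 at the 15 others, and Rrm3 covered 49.9% ± 22.4, against 39.8% ± 16.8 (SD across ends). Both differences lay within the spread between ends. At XII-L, XII-R and IX-L the outermost Thp1 cluster itself reached past 10 kb, with inner edges at 13780, 13014 and 10449 bp. Part of the Thp1 difference thus follows from how the ends were grouped. The outermost Rrm3 cluster reached past 10 kb at IX-L, X-L, XII-L, XII-R, XIV-L, XV-R and XVI-L, which all belong to the 17 ends. Its inner edges there lay at 10396 to 13848 bp, so outermost clusters enter the Rrm3 difference as well.

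Behind the outermost cluster, 1 of 140 Thp1 clusters measured 5 kb or more (0.714%, interval 0.126 to 3.93%), against 2.29% of all Thp1 clusters. For Sac3 it was 1 of 119 (0.840%, interval 0.148 to 4.61%), against 2.63% of all Sac3 clusters. For Rrm3 it was 4 of 258 (1.55%, interval 0.605 to 3.92%), against 0.986% of all Rrm3 clusters. Each interval includes the share of the whole list. The longest of these clusters was at VIII-R in each list. There Thp1 had 5868 bp from 13053 to 18921 bp from the end, Sac3 5835 bp from 13090 to 18925 bp, and Rrm3 8266 bp from 10707 to 18973 bp. The others of Rrm3 measured 6801 bp at X-L, 6473 bp at IX-L and 5348 bp at III-L. At III-L, whose outermost genes include the silent mating-type genes *HMLALPHA1* and *HMLALPHA2*, the outermost clusters were short, with 1158 bp for Thp1, 1263 bp for Sac3 and 2104 bp for Rrm3. Its window was nevertheless covered to 40.9% by Thp1, 45.9% by Sac3 and 73.3% by Rrm3, and held 10 Thp1, 11 Sac3 and 10 Rrm3 clusters. The inner ones included a Thp1 cluster of 2592 bp and a Sac3 cluster of 3006 bp, which began 11615 and 11610 bp from the end. Whether these clusters lie on the mating-type genes was not analysed here.

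Coverage ranged widely between single ends. VIII-R was highest in all lists, with 74.8% for Thp1, 72.3% for Sac3 and 94.6% for Rrm3. XII-R followed in all lists with 70.0, 71.6 and 89.9%. The next for Thp1 were XII-L (68.8%), X-L (68.5%) and IX-L (68.5%), and the same 3 ends followed for Sac3 with 68.8, 62.3 and 61.7%. For Rrm3 they were X-L (84.5%), IX-L (84.5%) and XV-R (82.6%). The outermost genes at VIII-R, *YHR219W* and *YHR218W*, have systematic names only. Behind them lie *IMD2*, which encodes an IMP dehydrogenase of guanine nucleotide synthesis, and *PHO12*, which encodes an acid phosphatase.

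Of the 32 ends, 28 were covered more than the interior of their own chromosome by Thp1, 29 by Sac3 and 27 by Rrm3. The exceptions for Thp1 were VI-R (0%, against 8.68% in the interior of chromosome VI), XIII-R (6.81%, against 9.26%), III-R (9.22%, against 11.1%) and IX-R (8.34%, against 8.40%). For Sac3 they were XIII-R (5.20%, against 9.995%), VI-R (6.48%, against 8.87%) and III-R (8.34%, against 12.1%). For Rrm3 they were VI-R (27.4%, against 43.5%), VII-L (28.2%, against 42.8%), IX-R (32.9%, against 42.8%), XI-L (33.1%, against 37.8%) and V-L (42.9%, against 44.1%). VI-R was thus below its interior in all 3 lists.

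The outermost bin of 1 kb held no Thp1 cluster at VI-R and neither a Thp1 nor a Sac3 cluster at XIII-R, and no other end lacked a cluster of any list there. At VI-R the nearest Thp1 cluster lay 32257 bp from the right end and measured 125 bp. Sac3 had 4 clusters in that window, the nearest at 143 bp from the end and 787 bp long, and Rrm3 had 13, of which the outermost measured 1605 bp. At XIII-R both Thp1 and Sac3 began 1214 bp from the end, with clusters of 921 and 917 bp, whereas an Rrm3 cluster of 3674 bp reached the end. The right ends of both chromosomes were set by the Rrm3 list alone.

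**Figure D4:**
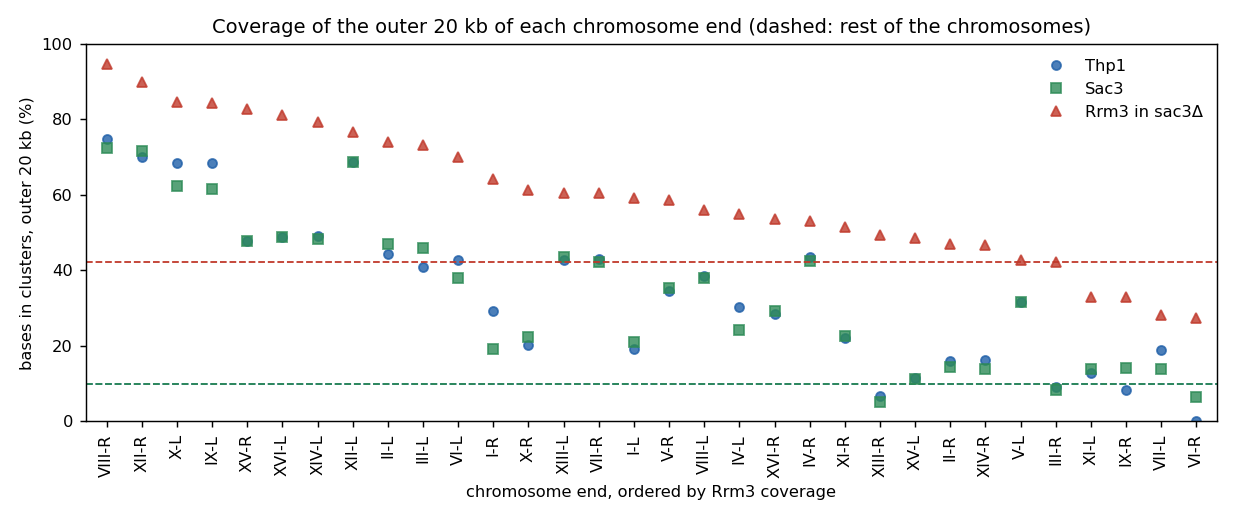
Share of bases in clusters in the outer 20 kb (vertical axis, %) of each of the 32 chromosome ends (horizontal axis, ordered by Rrm3 coverage) for Thp1 (blue circles), Sac3 (green squares) and Rrm3 in *sac3Δ* cells (red triangles), with dashed lines for the coverage of the rest of the chromosomes in the same list. Rrm3 lies above Thp1 and Sac3 at every end, and VIII-R is the highest and VI-R the lowest for Rrm3.

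The number of clusters per end varied from 0 at VI-R to 13 at I-R for Thp1 (mean 5.34 ± 3.01, SD, n = 32 ends), from 1 to 11 for Sac3 (4.72 ± 2.49) and from 4 to 14 for Rrm3 (9.06 ± 2.82). V-L and XII-L each had a single Thp1 and a single Sac3 cluster, which covered 31.7% of the window at V-L and 68.8% at XII-L in both lists. I-R, the end with the most Thp1 clusters, had 8 Sac3 clusters, and coverages of 29.2% for Thp1 and 19.3% for Sac3. XI-L also had a single Sac3 cluster, which covered 13.8%. Few clusters thus went with low as well as with high coverage.

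The longest stretches without a cluster inside the windows differed between lists. For Thp1 they measured 20000 bp at VI-R, 13731 bp at IX-R, 13657 bp at V-L, 12930 bp at XVI-R and 12256 bp at V-R. For Sac3 they measured 17425 bp at XIII-R, 17227 bp at XI-L, 15950 bp at II-R, 14645 bp at VI-R and 13751 bp at IX-R. The longest for Rrm3 measured 4210 bp at V-L, 4181 bp at XIII-L, 4051 bp at XI-R, 3624 bp at IV-R and 3396 bp at XIII-R. Stretches that reach the inner limit of the window were cut there.

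End by end, Thp1 and Sac3 covered similar shares. The coverage by Thp1 minus that by Sac3 had a mean of 0.69 ± 3.58 percentage points (SD, n = 32 ends) and lay within 5 points at 25 ends. Thp1 was higher at 18 ends and Sac3 at 13, and V-L was equal. The extremes were I-R, where Thp1 was higher by 9.94 points, and VI-R, where the difference was -6.48 points. Rrm3 covered more than Thp1 and more than Sac3 at all 32 ends, where Thp1 minus Rrm3 ranged from -42.6 points at XIII-R to -7.79 points at XII-L. Sac3 minus Rrm3 ranged from -45.1 points at I-R to -7.83 points at XII-L.

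Clusters of 2 lists that overlapped by 1 bp or more were called shared. At the ends 136 of 171 Thp1 clusters were shared with Sac3 (79.5%, 95% Wilson interval 72.9 to 84.9%), against 78.6% of all Thp1 clusters. In the other direction it was 137 of 151 Sac3 clusters (90.7%, interval 85.0 to 94.4%), against 84.4% of all Sac3 clusters. Of the Thp1 clusters whose outer edge lay 0 to 10 kb from an end, 88.3% (91 of 103, interval 80.7 to 93.2%) were shared with Sac3, and of those at 10 to 20 kb 66.2% (45 of 68, interval 54.3 to 76.3%). For Sac3 clusters shared with Thp1 the values were 93.7% (89 of 95) and 85.7% (48 of 56). In bases the agreement was closer at the ends than farther in. Of the bases in Thp1 clusters, 93.2% in the windows and 82.3% farther in also lay in a Sac3 cluster. Of the bases in Sac3 clusters, 95.1% in the windows and 82.8% farther in lay in a Thp1 cluster.

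Nearly every Thp1 or Sac3 cluster at an end lay on an Rrm3 cluster of *sac3Δ* cells, as it did elsewhere. This held for 166 of 171 Thp1 clusters (97.1%, interval 93.3 to 98.7%), against 98.5% of all Thp1 clusters, and for 150 of 151 Sac3 clusters (99.3%, interval 96.3 to 99.9%), against 99.7% of all Sac3 clusters. The shares are thus near those of the whole lists. In the other direction 117 of 290 Rrm3 clusters were shared with Thp1 (40.3%, interval 34.9 to 46.1%), against 28.7% of all Rrm3 clusters, and 103 of 290 with Sac3 (35.5%, interval 30.2 to 41.2%), against 26.7%. Here the outer and inner parts of the windows differed. From 0 to 10 kb, 56.7% of Rrm3 clusters were shared with Thp1 and 53.3% with Sac3, whereas from 10 to 20 kb the shares were 28.8 and 22.9%, close to those of the whole list.

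At the ends 4 of 171 Thp1 clusters were found in the Thp1 list alone (2.34%, interval 0.913 to 5.86%), against 1.25% farther in. They were a pair at VII-L of 627 and 445 bp, 1 at XIV-R of 653 bp and 1 at XVI-R of 152 bp. Of the Sac3 clusters 0 of 151 were in the Sac3 list alone (interval 0 to 2.48%), against 0.188% farther in, so that this count does not set the ends apart. For Rrm3, 165 of 290 clusters touched neither a Thp1 nor a Sac3 cluster (56.9%, interval 51.1 to 62.5%), against 68.4% farther in. They lay at 30 of the 32 ends, had a median of 324 bp, and 115 of them lay 10 kb or more from the end. The 95 Rrm3 clusters that touched a cluster of each protein had a median of 1575 bp. They were 32.8% of the Rrm3 clusters at the ends (interval 27.6 to 38.4%), against 22.9% farther in. The medians differed farther in as well, with 338 bp for clusters that touched neither protein and 1090 bp for those that touched both.

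All 3 lists covered the same bases over 32.3% of the windows, against 8.10% farther in. Bases in Rrm3 clusters alone were 24.5% of the windows, against 31.04% farther in, and bases in no cluster 39.2%, against 57.4%. Thp1 or Sac3 clusters took up 36.3% of the windows, against 11.6% farther in. Within them Rrm3 covered 98.2% of the bases in the windows, against 97.8% farther in, and outside them 38.4%, against 35.1%. Without replicate lists none of these differences was tested.

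Some ends resembled each other base for base. For each of the 496 pairs of ends, the bases covered at the same distance at both ends were divided by the bases covered at either. The median over all pairs was 0.28 for Thp1, 0.29 for Sac3 and 0.46 for Rrm3. The pair of IX-L and X-L was the most alike in every list, with 0.95 for Thp1, 0.98 for Sac3 and 0.99 for Rrm3. From 10 to 20 kb alone, where the long outermost clusters of most ends no longer reach, this pair was again first, with 0.89 for Thp1, 0.93 for Sac3 and 0.98 for Rrm3. Both ends carry genes of the same families in the annotation, *PAU14*, *VTH1*, *IMA3* and *HXT12* at IX-L and *PAU1*, *VTH2*, *IMA4* and *HXT9* at X-L. *IMA* genes encode isomaltases and *HXT* genes hexose transporters.

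In all, 3 pairs of ends shared the name of at least 4 gene families among their 8 outermost genes. The second was XV-R and XVI-L, with *YRF1*, *PAU*, *ERR*, *HSP* and *FEX* genes at both, and a likeness of 0.77 for Thp1, 0.81 for Sac3 and 0.82 for Rrm3 (places 19, 9 and 3 of 496). *ERR* genes encode proteins related to enolase and *FEX* genes fluoride exporters. The coverages of their windows were also close, 47.7 and 49.0% for Thp1, 47.9 and 48.7% for Sac3, and 82.6 and 81.2% for Rrm3. The third, IV-L and X-R, shared 6 families (*COS*, *MPH*, *SOR*, *HXT*, *THI* and *AAD*), and its likeness was 0.31 for Thp1, 0.32 for Sac3 and 0.61 for Rrm3 (places 209, 217 and 88 of 496). All 3 pairs lay above the median of all pairs in each list. Whether the probes of the array tell the copies of repeated sequences apart was not tested, and ends that share such sequences are not independent of each other.

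The limit of 20 kb itself cut through few clusters. In the Thp1 list 5 members crossed it, in the Sac3 list 6 and in the Rrm3 list 11. The last Thp1 cluster inside it began 19873 bp from an end and measured 152 bp, and the first outside began at 20017 bp and measured 169 bp. For Sac3 they began at 19981 and 20288 bp with 225 and 205 bp, and for Rrm3 at 19953 and 20019 bp with 117 and 964 bp.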

How the data were processed

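The authors analyzed the ChIP-chip arrays with the Tiling Array Suite, comparing immunoprecipitated with input DNA. The paper itself names the signal an IP/SUP ratio. Enriched probes (P-value threshold 0.01) were joined into a cluster across gaps of up to 250 bp, and clusters shorter than 100 bp were dropped. The deposited values are start and end positions in bp, with no signal, P-value or depth. The genome build is not given in the sources used here. Each list held no cluster under 100 bp, no gap under 251 bp and 0 overlapping neighbors. The Rrm3 list comes with the series and was assigned to *sac3Δ* cells by its name.

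Numbers, lengths, coverages and overlaps came from scripts in Python 3.11.15 (scipy 1.17.1, numpy 2.4.6), with plots drawn with matplotlib 3.10.9. Length is end minus start. Coverage counts only bases inside the 20-kb windows. Counting was checked on planted lists with known answers. Shares carry 95% Wilson intervals. Ends were named by a rule: the 5 highest and lowest in coverage, those with an empty outermost bin, and those with the 5 longest clusters and cluster-free stretches of each list. Other ends were named after their values had been seen. Gene names and their order are from the R64 RefSeq annotation. The clusters, groups of ends and alternatives were chosen with earlier results of these data known. The alternatives tried were clusters of at least 300 bp, windows of 10 kb, left ends only, leaving out chromosome XII or IV, assignment by cluster midpoint, and overlaps of at least 50% of both clusters.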

Additional observations from a re-analysis of the deposited data

How the results depend on the processing

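No paired analysis was possible because each protein had a single list. No repetition could be left out, as both Rrm3 repetitions stand behind 1 list. Of 93 recomputed values under the alternatives tried, 54 stayed within 1.5 times (numbers of clusters) or within the 95% binomial interval (lengths, coverages and shares) of the value reported, and 39 moved. The interval of coverage counts single bases as independent, which the bases of 1 cluster are not. It is therefore too narrow, with 34.5 to 34.8% for Thp1, against an SD of 20.7 percentage points over ends. By this measure 14 of 15 coverages moved, so the label says little for coverage.

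With clusters of at least 300 bp, 98 Thp1 and 99 Sac3 clusters were left. The medians of Thp1, Sac3 and Rrm3 were 766, 837 and 800 bp, the coverages 32.5, 32.4 and 57.6%, and 85.7% of Thp1 clusters were shared with Sac3. With windows of 10 kb, the numbers were 103, 95 and 120, the medians 474, 583 and 801.5 bp and the coverages 55.5, 55.7 and 75.0%. Then 88.3% of Thp1 clusters were shared with Sac3, and the shares of Rrm3 clusters shared with Thp1 and Sac3 were 56.7 and 53.3%. At left ends only, the numbers were 84, 72 and 138 and the coverages 39.8, 38.6 and 62.9%, and 97.2% of Sac3 clusters were shared with Thp1. Without chromosome XII the coverages were 32.3, 31.5 and 58.6%, and without chromosome IV 34.5% for Thp1 and 60.5% for Rrm3. When overlaps had to reach 50% of both clusters, 70.8% of Thp1 clusters were shared with Sac3 and 32.7% with Rrm3, 80.8% of Sac3 clusters with Thp1 and 35.1% with Rrm3, and 19.3 and 18.3% of Rrm3 clusters with Thp1 and Sac3. Fewer clusters, ends or bases enter each of these by construction.

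An alternative added after the data had been seen left out the 17 ends whose outermost Thp1 cluster measured 5 kb or more. At the other 15 ends there were 94 Thp1, 80 Sac3 and 172 Rrm3 clusters. The coverages were 17.5% ± 10.4, 17.1% ± 9.88 and 48.0% ± 13.6 (SD, n = 15 ends). These means were still above the 9.90, 9.84 and 42.4% farther in, in each list by less than the SD between ends. That SD describes single ends and not the precision of a mean, and no test was run.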
